A study of Mus musculus with 14 samples.

Results

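Day 1 of this series held 5 kidney libraries whose names carry numbers of different formats. The libraries labelled replicates 1 and 2 of day 1 have numbers of 3 digits, and those labelled replicates 3, 4 and 5 have numbers of 1 digit, so that 2 libraries were set against 3, out of 14 libraries in the whole series. Neither the sample labels nor the study's methods say what the number format stands for, and it is used here only as an unexplained grouping. All 5 were bulk RNA libraries of kidney from male C57/B6 mice, 8 weeks old, taken at day 1 after renal ischemia/reperfusion injury (IRI), in which the blood supply of the kidney is clamped and released. No gene was deleted and no agent was given to one group and not to the other as far as the labels go. The 4 libraries of day 0, which all have 1-digit numbers and come from mice of the same sex, strain and age, serve as reference levels only, and the labels do not say whether these mice were sham-operated. Nothing states that the replicates came from separate animals, so the p-values measure the spread between these samples, which may be technical.

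An ischemic tubule is known to pass through a series of programs. Immediate early transcription factors and heat shock chaperones are induced first and decay within hours, neutrophil-attracting chemokines follow, surviving proximal tubule cells lose their transporters and enzymes and turn on injury molecules such as KIM-1 (gene Havcr1) and NGAL (gene Lcn2), and replication, matrix genes and macrophages come later. The groups of day 1 libraries were compared program by program with 37 gene lists that hold 824 genes. No gene was put in more than 1 list, so a gene of several programs is counted in only 1 of them.

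The 5 libraries held between 13399023 and 20476979 reads on genes. Rows of the count files that name no gene took 34.3% to 35.7% of the reads in the 3-digit and 36.4% to 38.3% in the 1-digit libraries, and unmapped reads among them 12.5% to 14% and 7.84% to 12.0%. Reads outside annotated genes made up 11.1% to 12.8% in the 3-digit and 13.7% to 17.0% in the 1-digit libraries of day 1, and reads with several positions made up 8.47% to 9.81% and 10.9% to 12.7%, so each of these 4 shares differed without overlap. The ribosomal transcript Rn45s took 1.39% of the reads in replicate 5 and 0.333% to 0.40% in the other 4. The part of these shares in the results was not tested. Distances between libraries on the log2 scale of CPM (reads of a gene scaled to a fixed library size) were 65.2 within the 3-digit group, 59.8 to 70.4 within the 1-digit group and 109 to 132 between the groups. No pair of libraries differed by as little as counting error alone would give (chi-square over its degrees of freedom 33.5 to 228). Kidney identity was plain in every library, with Umod, the main protein of the thick limb, at 4045 and 2846 CPM and 3084, 4218 and 5219.9 CPM, Slc22a6, an organic anion transporter of the proximal tubule, at 1405 and 1161 CPM and 1738, 1197 and 1021 CPM, and the podocyte gene Synpo at 68.0 and 64.3 CPM and 29.8, 32.8 and 47.5 CPM. Throughout, the first values are replicates 1 and 2 and the second are replicates 3, 4 and 5. The hemoglobin genes and Eno1 were listed at 0 in all 5.

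Of 14804 genes tested, 5049 (34.1%) differed between the groups at an adjusted p under 0.05 in edgeR's quasi-likelihood test. Higher in the 3-digit libraries were 2685 (18.1%), and lower were 2364 (16.0%). In 5030 genes (34.0%) the call came with groups that did not overlap, and 1446 higher and 1016 lower genes differed by at least 1 on the log2 scale. The median log2 fold change, 3-digit minus 1-digit, was 0.03 over all genes tested. The direction of calls depends on scaling, since 53.2% of the calls were higher under the TMM scaling used here, 49.1% under RLE size factors and 48.2% with DESeq2, both with medians of -0.01, 65.0% under upper quartile scaling, which put the median at 0.16, and 72.9% under total counts, which put it at 0.25. The count also depends on 1 library. Without replicate 2, where replicate 1 stands alone against 3 libraries and its spread is assumed to be that of the other groups, 1947 genes were called, against 3515 without replicate 1 and 3876 to 4428 without a 1-digit library. In all 5 of these fits 1636 genes (974 higher and 662 lower) kept the call and its direction. Below, a call is said to hold when it did so, as 32.4% of all calls did. In whole tissue, fewer cells of a type and less RNA per cell cannot be told apart. Of the list genes that could be tested 38.6% were called, 126 higher and 178 lower, and 109 of these 304 calls held.

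**Figure D1:**
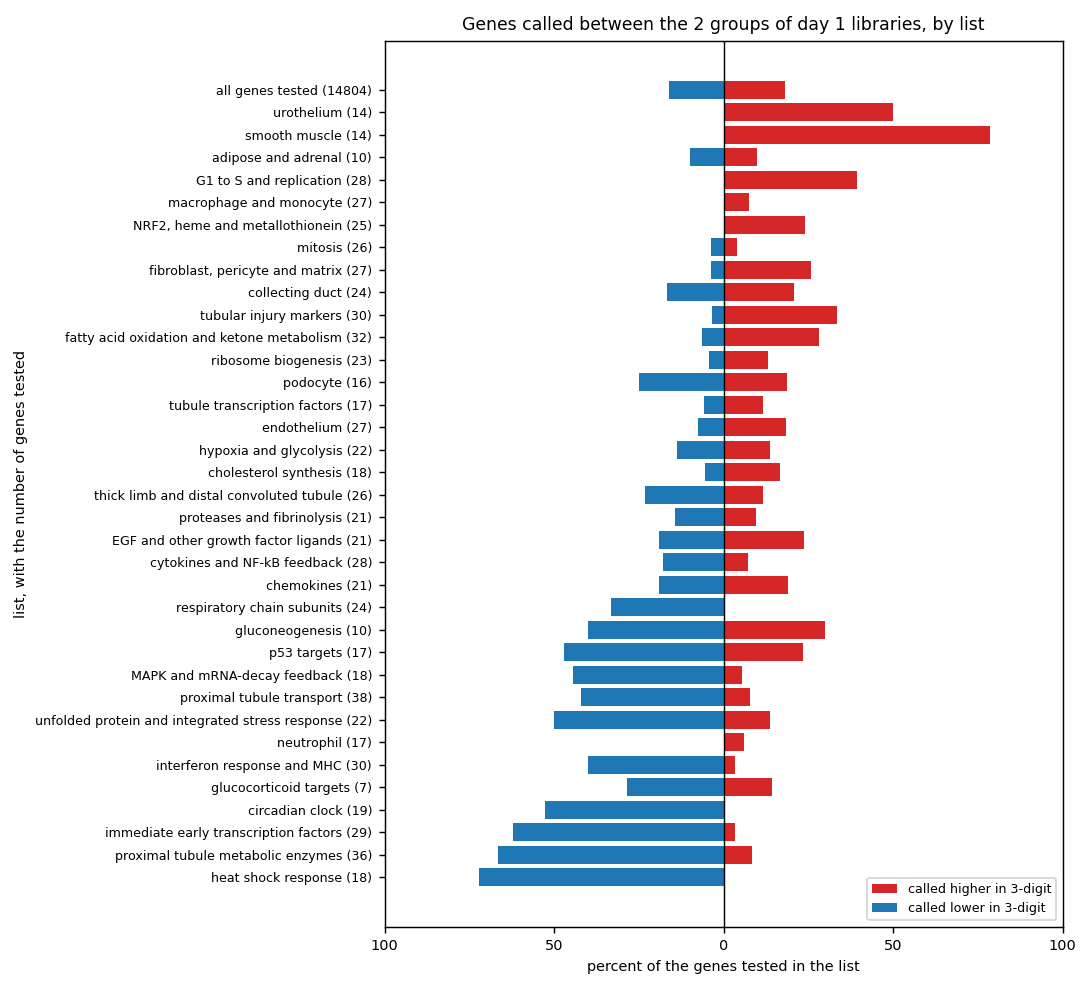
Share of the tested genes of each list that were called higher (right, red) or lower (left, blue) in the 3-digit libraries of day 1, in percent, ordered by the list's median log2 fold change. Lists with at least 7 tested genes are shown, and the top bar is all 14804 genes tested, with 18.1% higher and 16.0% lower. The heat shock list has 13 of 18 genes lower and the smooth muscle list 11 of 14 higher.

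Immediate early transcription factors, which growth factors and stress switch on without new protein synthesis, were mostly lower in the 3-digit libraries. Of 29 tested, 18 were lower and 1 was higher, so that 65.5% were called against 34.1% of all genes tested. The median log2 fold change was -1.29, and 9 of the 19 calls held. Atf3, a stress-induced member of the ATF/CREB family, had 25.4 and 23.0 CPM in the 3-digit and 564, 193 and 508 CPM in the 1-digit libraries. All 3 of the 1-digit libraries were far above the others and above the 1.52 to 3.00 CPM of day 0 (log2 fold change -4.13, SE 0.64, adjusted p = 0.000693). Fosb, an AP-1 subunit, had 2.70 and 0.955 CPM against 71.5, 42.1 and 96.3 CPM (log2 fold change -5.28, SE 0.70, adjusted p = 0.000305). Jun, the partner of the FOS proteins in AP-1, had 80.7 and 81.4 CPM and 919, 248 and 609 CPM (log2 fold change -2.87, SE 0.42, adjusted p = 0.000531), with the 3-digit values little above the 49.1 to 62.9 CPM of day 0. Klf6, a zinc finger factor of injured tubules, was even within the groups, with 257 and 190.1 CPM and 826, 796 and 877 CPM (log2 fold change -1.90, SE 0.18, adjusted p = 8.9e-05). Calls on these genes held. Fos had 14.6 and 11.8 CPM and 183, 79.2 and 182 CPM (log2 fold change -3.49, SE 0.96, adjusted p = 0.0145), in groups that did not overlap, but its call was lost when either 3-digit library was left out (adjusted p = 0.07 without replicate 1 and 0.119 without replicate 2). In both groups 26 of the 29 genes lay above the range of the 4 day 0 libraries, where 33.4% of all genes tested lay in the 3-digit and 31.2% in the 1-digit libraries. Below that range lay 31.9% and 32.7% of all genes. The list had 9 calls without replicate 2. Egr2 went the other way, with 9.93 and 6.68 CPM and 2.46, 3.43 and 4.34 CPM (log2 fold change 1.28, SE 0.43, adjusted p = 0.0347), and this call was lost without replicates 1, 2, 3 or 4 in turn (adjusted p from 0.0438 to 0.215 over the 5 fits).

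The feedback genes that limit this response, phosphatases of the MAP kinases and RNA-decay factors, gave 8 lower and 1 higher of 18 (50% called against 34.1% of all genes, median -0.64), and 4 calls held. Without replicate 2 the list had 4 calls, and without replicate 1 its median was -1.07. Dusp1, a MAP kinase phosphatase, had 88.8 and 40.1 CPM and 401, 285 and 326 CPM (log2 fold change -2.39, SE 0.36, adjusted p = 0.000562), with replicate 2 below the day 0 range of 65.4 to 78.0 CPM. Dusp14 had 25.5 and 27.9 CPM and 115, 64.8 and 104 CPM (log2 fold change -1.83, SE 0.34, adjusted p = 0.00191). Zfp36, which speeds the decay of cytokine mRNAs, was lower, at a log2 fold change of -2.0 (adjusted p = 0.00376, and adjusted p = 0.0602 without replicate 2). Its relative Zfp36l1 was the gene that was higher, with 324 and 305 CPM and 165, 143 and 198 CPM (log2 fold change 0.90, SE 0.21, adjusted p = 0.00566). In none of these 4 genes did the groups overlap.

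Heat shock genes, chaperones that refold damaged proteins and that heat shock factor 1 induces, were lower in the 3-digit libraries. Of 18 genes 13 were lower in edgeR's test and none was higher (72.2% called, with 1 higher at an unadjusted p under 0.05 and 0 with DESeq2), with a median log2 fold change of -1.55, and 12 of the 13 calls held. Hspa1a, an inducible HSP70 chaperone, had 14.4 and 23.0 CPM in the 3-digit and 2578, 422 and 1889 CPM in the 1-digit libraries, with 16.4 to 34.0 CPM at day 0 (log2 fold change -6.44, SE 1.09, adjusted p = 0.00108). The 3-digit values sat in or just under the day 0 range, and among the 1-digit libraries replicate 4 was well under the other two. Its near-identical neighbour Hspa1b showed 27.5 and 49.9 CPM and 2154, 363 and 1393 CPM (log2 fold change -5.07, SE 0.84, adjusted p = 0.000952), and since only reads with 1 position were counted, the split between these copies is uncertain. Hsph1, a nucleotide exchange factor of HSP70, had 131 and 191 CPM and 1615, 541 and 1437 CPM (log2 fold change -2.89, SE 0.60, adjusted p = 0.00327), and its 3-digit values were under the 311 to 412 CPM of day 0. The constitutive chaperones moved the same way by less. Hspa8 had 1789 and 2294 CPM and 8204, 4368 and 6193 CPM (log2 fold change -1.62, SE 0.33, adjusted p = 0.00303), and Hsp90ab1 had 1617 and 1647 CPM and 4271, 3499 and 3821 CPM (log2 fold change -1.24, SE 0.19, adjusted p = 0.000613). In the 1-digit libraries 14 of the 18 genes lay above the day 0 range, whereas in the 3-digit libraries 3 lay above it and 8 below. Of all genes tested 31.2% lay above that range in the 1-digit libraries, and 33.4% above and 31.9% below in the 3-digit libraries. The one call that did not hold was Hspb1, a small heat shock protein, at 114 and 117 CPM and 215, 247 and 264 CPM (adjusted p up to 0.152 without replicate 2, with the call also lost without replicates 1, 4 and 5).

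Heat shock factor 1 binds repeats of GAA in alternating orientation. The 250 bases before the start site of each gene, taken from RefSeq promoters of build GRCm38.p6, were searched on both strands for GAANNTTCNNGAA. It was found in 153 of 32851 promoters (0.466%) and in 2 of the 16 promoters of the 10 lower heat shock genes that had one in the RefSeq set, those of Hspe1 and Hspd1, the mitochondrial chaperonin pair that shares 1 divergent promoter. Hspe1 had 115 and 149.8 CPM and 572, 408 and 614 CPM (log2 fold change -2.01, SE 0.22, adjusted p = 0.000122). The match is a description of letters, not a measured site. The promoters of Hspe1 (chr1:55087948-55088147, plus strand) and of Hspa1a (chr17:34972157-34972356, minus strand), the last 200 bases before the start, are shown because they belong to the gene with the match and to the gene with the greatest difference in the list. The capitals mark the 2 overlapping matches, and in Hspa1a these letters are not in the window.
Hspe1: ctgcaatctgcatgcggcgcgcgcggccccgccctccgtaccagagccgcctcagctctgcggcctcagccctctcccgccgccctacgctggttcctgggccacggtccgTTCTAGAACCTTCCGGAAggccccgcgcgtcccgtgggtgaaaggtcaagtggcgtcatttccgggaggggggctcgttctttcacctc
Hspa1a: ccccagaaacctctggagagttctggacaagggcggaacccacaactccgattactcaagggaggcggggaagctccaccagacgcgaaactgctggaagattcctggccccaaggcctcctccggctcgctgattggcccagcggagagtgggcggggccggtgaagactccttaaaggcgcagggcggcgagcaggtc

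**Figure D2:**
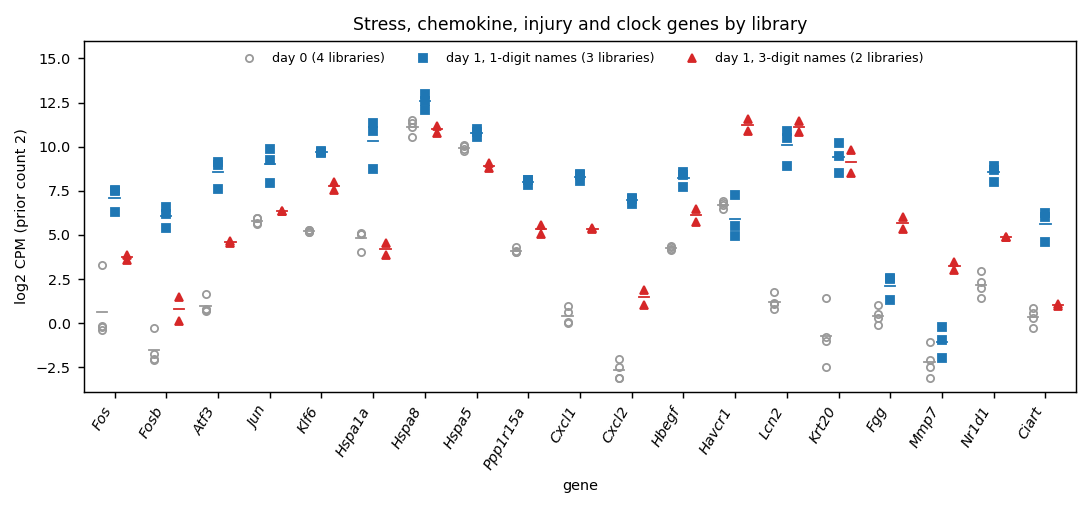
Expression of stress, chemokine, injury and clock genes in log2 CPM (prior count 2) for each library of day 0 (open circles), the 1-digit libraries of day 1 (squares) and the 3-digit libraries of day 1 (triangles), with lines at group means. From Fos to Hbegf the triangles lie under the squares, for Havcr1, Fgg and Mmp7 they lie above, and for Lcn2 and Krt20 the groups overlap.

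The unfolded protein and integrated stress response, which lowers protein synthesis and raises chaperones of the endoplasmic reticulum, gave 11 lower and 3 higher of 22 genes (63.6% called against 34.1% of all genes, median -0.71). Of the lower calls 6 held and those on Ddit3, Dnajb9, Pdia6, Dnajc3 and Trib3 did not, and without replicate 2 the list had 7 calls. Hspa5, the chaperone BiP, had 437 and 541 CPM and 1836, 1492 and 2038 CPM (log2 fold change -1.87, SE 0.29, adjusted p = 0.000627). With 878 to 1106 CPM at day 0, both 3-digit libraries lay below and all 3 of the 1-digit libraries above. Hsp90b1, another chaperone of that compartment, had 427 and 562 CPM and 874, 946 and 903 CPM (log2 fold change -0.88, SE 0.19, adjusted p = 0.00372). Herpud1, a part of its degradation machinery, had 138 and 123 CPM and 638, 590.1 and 434 CPM (log2 fold change -2.09, SE 0.28, adjusted p = 0.000352), again on both sides of much of the day 0 range of 364 to 462 CPM. Ppp1r15a, the phosphatase subunit GADD34 that restores translation, had 46.8 and 33.5 CPM and 281, 226 and 278 CPM (log2 fold change -2.70, SE 0.39, adjusted p = 0.000461). The genes that were higher were Atf5, Psat1, an enzyme of serine synthesis, and Chac1, a glutathione-degrading enzyme, with log2 fold changes of 0.85, 1.32 and 1.55, and none of these 3 calls held (adjusted p = 0.0739 without replicate 2 for Atf5, adjusted p from 0.04 to 0.213 for Psat1 and adjusted p from 0.034 to 0.572 for Chac1 over the 5 fits).

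Of 21 chemokines tested, 4 were lower and 4 higher in the 3-digit libraries (38.1% called, close to the 34.1% of all genes, median -0.39, but 0.15 among genes with at least 10 counts in every library 0.09 without replicate 5 and -0.74 without replicate 2), and the calls on 2 of the lower genes held. The list had 2 calls without replicate 2. Cxcl2, which attracts neutrophils through CXCR2, had 3.62 and 1.91 CPM and 134, 131 and 109.8 CPM, against at most 0.127 CPM at day 0 (log2 fold change -5.51, SE 0.64, adjusted p = 0.000168). Cxcl1, a ligand of the same receptor, had 40.1 and 41.1 CPM and 332, 354 and 267 CPM (log2 fold change -2.97, SE 0.57, adjusted p = 0.00209). Both genes were above day 0 in every library of day 1, and the 1-digit group was higher by a wide margin. Ccl20, which attracts CCR6-bearing cells, was higher in the 3-digit libraries, with 3.02 and 3.91 CPM and 0.478, 0.572 and 0.723 CPM (log2 fold change 2.55, SE 0.69, adjusted p = 0.0127), and adjusted p = 0.0838 without replicate 2. Cx3cl1, the membrane-bound ligand of CX3CR1, was higher as well (log2 fold change 0.79, adjusted p = 0.0068, and adjusted p = 0.126 without replicate 2). Ccl2, the main attractant of monocytes, did not pass the test at 3.45 and 2.45 CPM and 4.10, 3.83 and 9.80 CPM (log2 fold change -0.99, adjusted p = 0.127), although the groups did not overlap.

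Cytokines and NF-kB feedback gave 5 lower and 2 higher of 28 genes (median -0.37), a share of 25% that is below the 34.1% of all genes, and without replicate 2 no gene of the list was called. The median was -0.59 without replicate 3 and -0.20 without replicate 5. Il6 did not pass, at 4.37 and 2.27 CPM and 5.06, 4.52 and 15.5 CPM, with replicate 5 high (log2 fold change -1.33, adjusted p = 0.233). Nfkbia and Tnfaip3, inhibitors that NF-kB itself induces, were lower, at log2 fold changes of -1.27 and -1.20 (adjusted p = 0.00872 and 0.0124, and 0.0827 and 0.105 without replicate 2). Tnfrsf12a, the receptor of TWEAK, had 472 and 327 CPM and 639, 942 and 825 CPM (log2 fold change -1.01, SE 0.30, adjusted p = 0.0208, and adjusted p = 0.199 without replicate 2 and 0.0635 without replicate 4). Il11, an IL-6 family cytokine of injured epithelium, went the other way with 10.3 and 11.1 CPM and 1.02, 3.15 and 3.62 CPM (log2 fold change 2.04, SE 0.61, adjusted p = 0.0209, and adjusted p up to 0.103 without replicate 2, with the call also lost without replicates 1 and 3).

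Of 21 growth factor ligands 4 were lower and 5 higher (42.9% called against 34.1% of all genes, median -0.32), and 3 calls held. The median was -0.14 without replicate 4, and the list had 3 calls without replicate 2 and 5 without replicate 5. Hbegf, an EGF receptor ligand of the early tubular response, had 87.8 and 53.9 CPM and 381, 213 and 341 CPM (log2 fold change -2.14, SE 0.29, adjusted p = 0.000364), all above the 17.8 to 20.4 CPM of day 0. Ccn2, the matrix protein CTGF, had 601 and 325 CPM and 763, 735 and 851 CPM (log2 fold change -0.76, SE 0.26, adjusted p = 0.0408), and this call did not hold (adjusted p up to 0.39 without replicate 2, with the call also lost without replicates 3, 4 and 5). Areg, another EGF receptor ligand, was present at 0.540 and 0.727 CPM and 2.60, 2.12 and 2.01 CPM (log2 fold change -1.81, SE 0.59, adjusted p = 0.032, and adjusted p from 0.0514 to 0.158 over the 5 fits). The early ligand Hbegf thus differed most among those that were lower. Higher in the 3-digit libraries were the receptor Erbb4, with 1.56 and 3.05 CPM and 0.478, 0.686 and 0.402 CPM (log2 fold change 2.11, SE 0.38, adjusted p = 0.00152), and Fgf21, a hormone of fasting that PPARalpha induces, with 1.46 and 1.45 CPM and 0.0683, 0.0572 and 0.161 CPM (log2 fold change 3.9, SE 0.66, adjusted p = 0.00134). Erbb4 stayed below the 4.35 to 7.17 CPM of day 0 in both groups.

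The tubular injury list gave 10 genes higher and 1 lower of 30 in the 3-digit libraries, a share called of 36.7% that is close to the 34.1% of all genes, and 6 of the higher calls held. The median was 0.26, and 0.10 without replicate 3 and 0.42 to 0.43 without replicates 1, 4 or 5. With 6 calls, the list was shortest without replicate 2. All 30 genes lay above day 0 in the 3-digit libraries and 25 in the 1-digit libraries, against 33.4% and 31.2% of all genes tested, and the list is made of genes known to be induced by injury. The greatest difference was in Havcr1, the phosphatidylserine receptor KIM-1 by which injured proximal tubule cells take up debris. It had 1863 and 3017 CPM in the 3-digit and 30.6, 151 and 45.7 CPM in the 1-digit libraries (log2 fold change 5.01, SE 0.68, adjusted p = 0.000366). At day 0 it had 89.8 to 119 CPM, so replicates 3 and 5 lay under the day 0 range, replicate 4 above it, and both 3-digit libraries many times above. Lcn2, which encodes the iron-carrier protein NGAL, did not follow this pattern. It had 2781 and 1831 CPM and 481, 1447 and 1906 CPM, overlapping between the groups and far above the 1.63 to 3.23 CPM of day 0 in all 5 (log2 fold change 0.85, SE 0.85, adjusted p = 0.458). Krt20, a keratin of injured tubules, overlapped too, at 892 and 365 CPM and 361, 1205 and 725 CPM (log2 fold change -0.28, SE 0.76, adjusted p = 0.803).

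Some other injury genes were higher as well, while 19 of the 30 in the list were not called. The fibrinogen chains Fgg and Fgb, which injured tubules also make, were higher. Fgg had 65.1 and 40.9 CPM and 2.39, 5.60 and 5.70 CPM (log2 fold change 3.53, SE 0.83, adjusted p = 0.0064), and Fgb had 3.83 and 3.23 CPM and 0.137, 0.458 and 0.643 CPM (log2 fold change 3.09, SE 0.58, adjusted p = 0.00191). Spp1, the secreted matrix protein osteopontin, was the most abundant gene of the list, with 24433 and 29988 CPM and 6361, 10700.1 and 12051 CPM (log2 fold change 1.49, SE 0.50, adjusted p = 0.0341). The groups did not overlap for Spp1, but its call was lost in 4 of the 5 fits that leave out a library (adjusted p up to 0.167 without replicate 2, with the call also lost without replicates 1, 3 and 4). Complement C3 had 74.8 and 163 CPM and 28.5, 16.4 and 15.7 CPM (log2 fold change 2.56, SE 0.44, adjusted p = 0.00127). The single lower gene was Cdkn1a, the cell cycle inhibitor p21, at 229 and 126 CPM and 448, 700.2 and 593 CPM (log2 fold change -1.71, SE 0.58, adjusted p = 0.0359, and adjusted p up to 0.249 without replicate 2, with the call also lost without replicates 1, 4 and 5). Mmp7, a protease that injured tubules secrete, had 11.1 and 7.96 CPM and 0.137, 0.743 and 0.402 CPM (log2 fold change 4.41, SE 0.83, adjusted p = 0.00191) and was close to the 0 to 0.362 CPM of day 0 in the 1-digit group. In its list of 21 proteases and fibrinolysis genes 2 were higher and 3 lower (23.8% called, below the 34.1% of all genes), and 1 call held. The median was -0.25, and -0.12 without replicate 2 and -0.17 without replicate 5. The urokinase receptor Plaur, the matrix protease Mmp3 and tissue factor F3 were lower (log2 fold changes -1.56, -1.69 and -0.87) and the protease inhibitor Slpi was higher (3.04), and none of these calls held (adjusted p from 0.0212 to 0.195, adjusted p from 0.0445 to 0.236, adjusted p from 0.0601 to 0.318 and adjusted p from 0.0191 to 0.216 over the 5 fits).

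The p53 targets gave 8 lower and 4 higher of 17 (70.6% called against 34.1% of all genes, median -0.57), and 3 of the lower calls held. The median was -0.93 without replicate 1 and -0.34 without replicate 2, and the list then had 7 and 3 calls. Pmaip1, the pro-apoptotic NOXA, had 21.8 and 31.8 CPM and 134, 74.8 and 128 CPM (log2 fold change -2.07, SE 0.27, adjusted p = 0.000305). Plk3, a stress-induced kinase, had 109 and 45.2 CPM and 451, 219.8 and 295 CPM (log2 fold change -2.07, SE 0.41, adjusted p = 0.00254). For Trp53inp1 the values were 48.3 and 32.5 CPM and 86.1, 271 and 134 CPM (log2 fold change -2.02, SE 0.59, adjusted p = 0.0185, and adjusted p up to 0.155 without replicate 2, with the call also lost without replicates 1 and 4). Higher were Bax, Aen, Phlda3 and Eda2r, by log2 fold changes of 0.59 to 1.40, and none of their calls held (adjusted p from 0.0423 to 0.138, adjusted p from 0.0493 to 0.154, adjusted p from 0.0349 to 0.414 and adjusted p from 0.0422 to 0.217, in that order, over the 5 fits).

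NRF2 targets and iron genes gave 6 higher and 0 lower of 25 in edgeR's test (24% called, below the 34.1% of all genes, median 0.61, also with the gene that a group had at 0 set to its bound), and 3 calls held. The median was 0.23 without replicate 3 and 0.35 without replicate 1, and without replicate 2 the list had 3 calls. At an unadjusted p under 0.05 there were 3 lower genes, and DESeq2 called 3 lower. Nqo1, a quinone reductase and the standard NRF2 target, had 232 and 217 CPM and 31.4, 56.3 and 39.3 CPM (log2 fold change 2.41, SE 0.54, adjusted p = 0.0049). The 1-digit values lay around the 42.3 to 51.8 CPM of day 0. G6pdx, the first enzyme of the pentose phosphate pathway, had 126 and 118 CPM and 32.8, 48.2 and 34.8 CPM (log2 fold change 1.66, SE 0.23, adjusted p = 0.000422), and the transferrin receptor Tfrc had 178 and 262 CPM and 109, 99.4 and 89.3 CPM (log2 fold change 1.15, SE 0.21, adjusted p = 0.00168). Gclm and Fth1 were higher by 0.98 and 0.83 on the log2 scale (adjusted p = 0.00701 and 0.0438), and these calls did not hold (adjusted p from 0.00793 to 0.108 and adjusted p from 0.0175 to 0.19 over the 5 fits). Hmox1, heme oxygenase 1, did not pass the test and pointed the other way, with 359 and 571 CPM and 917, 907 and 763 CPM in groups that did not overlap (log2 fold change -0.89, SE 0.38, adjusted p = 0.0833).

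Proximal tubule transporters, which reclaim phosphate, glucose and amino acids from the filtrate, differed mostly towards lower levels in the 3-digit libraries. Of 38 genes 16 were lower and 3 higher (50% called against 34.1% of all genes, median -0.66), and 7 calls held, 5 lower and 2 higher. Without replicate 3 the median was -0.41, and without replicate 2 the list had 8 calls. Slc34a1, the main phosphate transporter, had 818 and 402 CPM and 6418, 4346 and 4177 CPM (log2 fold change -3.03, SE 0.54, adjusted p = 0.00151). With 4314 to 5383 CPM at day 0, the 1-digit libraries lay in or near that range and both 3-digit libraries far under it. Slc34a3, a related transporter, had 8.31 and 2.09 CPM and 117, 69.2 and 94.2 CPM (log2 fold change -4.18, SE 1.10, adjusted p = 0.0112, and adjusted p = 0.115 without replicate 2), and the amino acid transporter Slc7a13 had 48.3 and 20 CPM and 525, 308 and 375 CPM (log2 fold change -3.56, SE 0.77, adjusted p = 0.00416, and adjusted p = 0.0609 without replicate 2). Slc22a8, an organic anion transporter, had 168 and 101 CPM and 624, 458 and 416 CPM (log2 fold change -1.89, SE 0.38, adjusted p = 0.00262). These 4 genes did not overlap between the groups. In the 3-digit libraries 30 of the 38 genes lay below the day 0 range and in the 1-digit libraries 19, against 31.9% and 32.7% of all genes tested.

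The 3 genes that were higher did not follow this. Slc6a18, a neutral amino acid transporter of the late proximal tubule, had 1158 and 1607 CPM and 387, 318 and 265 CPM (log2 fold change 2.10, SE 0.30, adjusted p = 0.000474). It lay above the 874 to 1061 CPM of day 0 in the 3-digit and below in the 1-digit libraries. Slc22a19, an organic anion transporter, had 38.7 and 20.5 CPM and 4.10, 4.17 and 4.58 CPM (log2 fold change 2.79, SE 0.46, adjusted p = 0.00093), all far below the 226 to 289.5 CPM of day 0. Dab2, an endocytic adaptor, was the third (log2 fold change 0.69, adjusted p = 0.0144, and adjusted p = 0.221 without replicate 1). Lrp2, the endocytic receptor megalin, had 434 and 556 CPM and 1347, 663 and 649.8 CPM, with all 5 libraries below the 3082 to 3430.5 CPM of day 0, and did not pass the test (log2 fold change -0.84, SE 0.50, adjusted p = 0.212). The values of Slc22a6 given above overlapped between the groups and with day 0 (log2 fold change -0.04, SE 0.22, adjusted p = 0.909).

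Metabolic enzymes of the proximal tubule gave 24 lower and 3 higher of 36 (75.0% called against 34.1% of all genes) and a median of -1.47. Calls held for 6 of the lower genes and for all 3 of the higher, and without replicate 2 the list had 11 calls. Bhmt, which remethylates homocysteine, had 0.108 and 0.182 CPM and 7.65, 3.20 and 3.70 CPM (log2 fold change -4.97, SE 0.72, adjusted p = 0.000474). Below the day 0 range lay 31 of the 36 genes in the 3-digit libraries and 11 in the 1-digit libraries, against 31.9% and 32.7% of all genes tested. Acsm2, an acyl-CoA synthetase, was abundant in every library, with 3826 and 2604 CPM and 8531, 7259 and 6481 CPM (log2 fold change -1.21, SE 0.33, adjusted p = 0.0135, and adjusted p = 0.15 without replicate 2). Cyp4b1 and Cyp2d26, cytochrome P450 enzymes, were lower, at log2 fold changes of -1.51 and -3.63 (adjusted p = 0.0167 and 0.00518, and 0.165 and 0.069 without replicate 2).

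The enzymes that were higher are fatty acid and sterol hydroxylases. Cyp4a14 and Cyp4a10, omega-hydroxylases that PPARalpha, the fatty acid sensor of the nucleus, induces, had 562 and 614 CPM against 81.8, 14.4 and 12.1 CPM (log2 fold change 4.02, SE 0.99, adjusted p = 0.00793) and 997 and 1229 CPM against 145, 137 and 117 CPM (log2 fold change 3.07, SE 0.30, adjusted p = 8.9e-05). Both 3-digit libraries were above the day 0 range for both genes, which was 6.52 to 19.2 CPM and 231 to 358 CPM, and for Cyp4a10 all 3 of the 1-digit libraries were below it. Cyp7b1, an oxysterol hydroxylase, had 39.8 and 21.6 CPM and 2.87, 4.40 and 6.03 CPM (log2 fold change 2.80, SE 0.45, adjusted p = 0.000806), all below the 281 to 405 CPM of day 0.

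Fatty acid oxidation and ketone metabolism, which the study examined, gave 9 higher and 2 lower of 32 genes (median 0.06, and -0.21 without replicate 1 and 0.25 without replicate 2), and 5 of the higher calls held. Without replicate 1 the list had 6 calls. Cpt2, the inner carnitine palmitoyltransferase, had 316 and 277 CPM and 110.1, 121 and 94.2 CPM (log2 fold change 1.45, SE 0.13, adjusted p = 8.9e-05), on the 2 sides of its day 0 range of 179 to 197 CPM. The peroxisomal thiolase Acaa1b had 879.6 and 588 CPM and 199.5, 265 and 196 CPM (log2 fold change 1.74, SE 0.24, adjusted p = 0.000406), and Acadl, an acyl-CoA dehydrogenase, had 581 and 563 CPM and 349.9, 418 and 345 CPM (log2 fold change 0.63, SE 0.14, adjusted p = 0.00571). The share called, 34.4%, is close to that of all genes. Oxct1, which uses ketone bodies rather than making them, was lower, with 650.1 and 599 CPM and 1723, 1303 and 1314 CPM (log2 fold change -1.21, SE 0.32, adjusted p = 0.0108, and adjusted p = 0.0516 without replicate 1 and 0.0943 without replicate 2). Sirt3, a mitochondrial deacetylase, was the other lower gene (-0.87, adjusted p = 0.0219, and adjusted p up to 0.122 without replicate 2, with the call also lost without replicates 1 and 3). Cpt1a, the outer carnitine palmitoyltransferase, overlapped between the groups at 586 and 431 CPM and 454, 573 and 451 CPM (log2 fold change 0.05, SE 0.26, adjusted p = 0.913), and so did the coactivator Ppargc1a at 33.3 and 28.9 CPM and 31.0, 19.3 and 28.4 CPM (log2 fold change 0.25, adjusted p = 0.404), which lay below its day 0 range of 87.8 to 97.0 CPM in all 5.

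**Figure D3:**
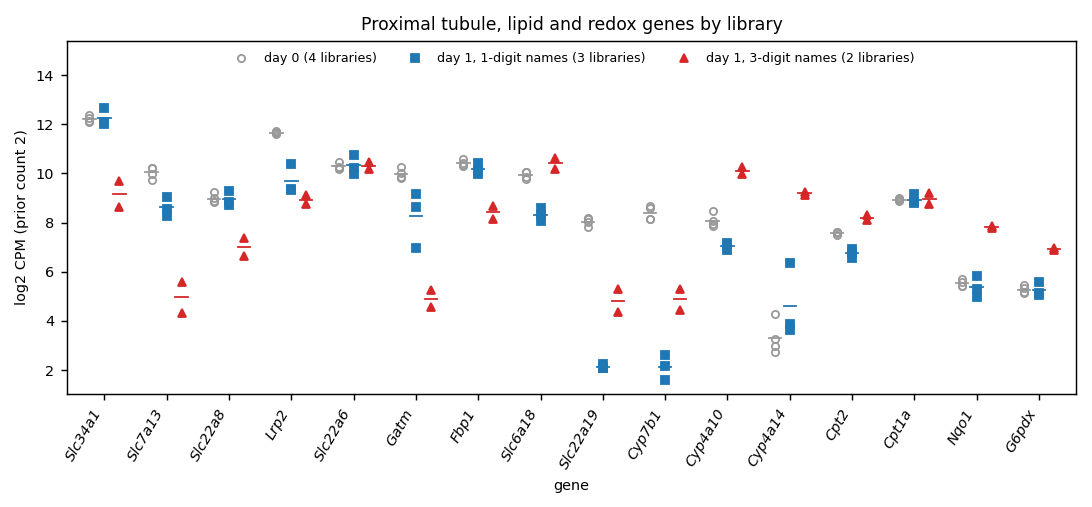
Expression of proximal tubule, lipid and redox genes in log2 CPM (prior count 2), with symbols as libraries of day 0 (open circles), 1-digit (squares) and 3-digit (triangles) libraries of day 1 and lines at group means. Triangles lie under squares from Slc34a1 to Slc22a8 and for Gatm and Fbp1 and above them from Slc6a18 to Cpt2 and for Nqo1 and G6pdx, while the groups overlap for Slc22a6 and Cpt1a.

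Gluconeogenesis, which the proximal tubule shares with the liver, gave 4 lower and 3 higher of 10 genes (70% called against 34.1% of all genes, median -0.55). Fbp1, fructose bisphosphatase, had 412 and 287 CPM and 1373, 999 and 1110.1 CPM (log2 fold change -1.73, SE 0.30, adjusted p = 0.00114), and its call was the only one of the list that held. Slc37a4, the glucose 6-phosphate carrier, was lower, at a log2 fold change of -1.69 (adjusted p = 0.00647, and adjusted p = 0.0913 without replicate 2). Pck1, the cytosolic enzyme that commits to the pathway, went the other way at 4527 and 2914 CPM and 1837, 1028 and 1008 CPM (log2 fold change 1.53, SE 0.43, adjusted p = 0.0168, and adjusted p up to 0.127 without replicate 1, with the call also lost without replicates 4 and 5). Respiratory chain subunits gave 8 lower and 0 higher of 24 in edgeR's test (33.3% called against 34.1% of all genes, median -0.42). At an unadjusted p under 0.05 and with DESeq2, 14 were lower and 0 higher. Under total counts 2 genes of that list were called, and 4 each without replicate 3 and without replicate 4. Ndufb5, of complex I, had 118 and 114 CPM and 211, 178 and 203 CPM (log2 fold change -0.77, SE 0.15, adjusted p = 0.00271) and was the call that held. Sdhb, Cox4i1, Cox6c and Ndufa4 were lower, at log2 fold changes of -0.71, -0.59, -0.63 and -0.54 (adjusted p = 0.0131, 0.0194, 0.024 and 0.0385, and 0.12, 0.198, 0.199 and 0.293 without replicate 2).

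Hypoxia and glycolysis genes were split at 3 and 3 of 22 (27.3% called, below the 34.1% of all genes), and 1 call held. The median was -0.07, and from -0.15 to -0.01 with a library left out. Pdk1, which keeps pyruvate out of mitochondria, was higher in the 3-digit libraries at 15.1 and 21.2 CPM and 6.83, 7.61 and 7.87 CPM (log2 fold change 1.29, SE 0.24, adjusted p = 0.0017), and all 5 libraries were below the 24.3 to 31.2 CPM of day 0. Egln3 and Pfkl were higher by 1.57 and 0.99, and Pgk1 and Pfkp were lower, at log2 fold changes of -0.44 and -0.62 on the log2 scale (adjusted p = 0.00943, 0.00736, 0.0297 and 0.0373, and 0.0695, 0.144, 0.197 and 0.18 without replicate 2). Cholesterol synthesis gave 3 higher and 1 lower of 18 (22.2% called, below the 34.1% of all genes), and 1 call held. The median was -0.11, and from -0.14 to 0.09 with a library left out. Fdps held at 39.8 and 36.9 CPM and 19.6, 21.8 and 22.5 CPM (log2 fold change 0.85, SE 0.15, adjusted p = 0.00155), whereas Sqle (1.20, adjusted p = 0.114 without replicate 2) and Cyp51 (-1.41, adjusted p = 0.0567 without replicate 1 and 0.122 without replicate 2) did not.

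Thick limb and distal convoluted tubule genes gave 3 higher and 6 lower of 26 (34.6% called, close to the 34.1% of all genes, median -0.24), and 3 calls held. Without replicate 2 the list had 3 calls and a median of -0.12. Umod overlapped between the groups (log2 fold change -0.28, SE 0.27, adjusted p = 0.457). Kcnj1, the potassium channel ROMK, had 88.3 and 101 CPM and 18.3, 14.5 and 13.2 CPM (log2 fold change 2.62, SE 0.35, adjusted p = 0.000305), and the tight junction gene Cldn19 had 27.6 and 33.3 CPM and 5.33, 6.81 and 9.0 CPM (log2 fold change 2.12, SE 0.32, adjusted p = 0.000584). Both were below day 0 in all 5 libraries and lowest in the 1-digit group. Pvalb, a calcium buffer of the distal convoluted tubule, had 4.59 and 3.86 CPM and 59.6, 45.4 and 70.9 CPM (log2 fold change -3.79, SE 0.80, adjusted p = 0.00359). Cldn14 was higher (3.81, adjusted p = 0.017), and Fxyd2, a sodium pump subunit, and Slc12a3, the thiazide-sensitive transporter, were lower (-0.78 and -0.78, adjusted p = 0.0121 and 0.0422), and these calls did not hold (adjusted p from 0.0294 to 0.0624, adjusted p from 0.0141 to 0.104 and adjusted p from 0.0628 to 0.164 over the 5 fits).

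Collecting duct genes gave 5 higher and 4 lower of 24 (37.5% called, close to the 34.1% of all genes, median 0.29), and 4 calls held. Without replicate 2 the list had 4 calls and a median of 0.17, and without replicate 1 the median was 0.19. Aqp4, a basolateral water channel, had 36.7 and 71.0 CPM and 3.83, 5.15 and 10 CPM (log2 fold change 3.10, SE 0.64, adjusted p = 0.00329). Elf5, a transcription factor of principal cells, had 13.0 and 15.2 CPM and 0.957, 2.12 and 2.49 CPM (log2 fold change 2.93, SE 0.57, adjusted p = 0.00224). Slc14a2, the urea transporter of the inner medullary duct, had 119 and 228 CPM and 0, 7.26 and 7.87 CPM, with no read in replicate 3 (log2 fold change 5.11, SE 1.54, adjusted p = 0.0217), and the call was lost without replicates 2, 3, 4 or 5 in turn (adjusted p from 0.038 to 0.0946 over the 5 fits). Aqp2, the vasopressin-regulated water channel, had 450.1 and 497 CPM and 178, 172 and 283 CPM in groups that did not overlap and did not pass the test (log2 fold change 1.17, adjusted p = 0.053), but passed it under total counts, upper quartile scaling, the looser filter, DESeq2, the day 1 libraries alone and without replicate 5 (adjusted p from 0.00716 to 0.0639 under the settings and 0.046 to 0.2 with a library left out). Sgk1, a kinase that aldosterone and stress induce, was lower at 218 and 123 CPM and 501, 519.6 and 529 CPM (log2 fold change -1.60, SE 0.29, adjusted p = 0.00154), and Cdh16 was lower, at a log2 fold change of -0.57 (adjusted p = 0.022, and adjusted p up to 0.132 without replicate 1, with the call also lost without replicates 2 and 3).

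Nephron transcription factors gave 2 higher and 1 lower of 17 (17.6% called, below the 34.1% of all genes, median 0.01). They were Pou3f3 (1.39), Emx2 (0.81) and Pax8 (-0.93), and no call of that list held. Without replicate 2 their log2 fold changes were 1.14, 0.59 and -0.88. Podocyte genes gave 3 higher and 4 lower of 16 (43.8% called against 34.1% of all genes), and 1 call held. The median was 0.04, and from -0.07 to 0.10 with a library left out. Nphs1, a slit diaphragm gene, was lower (log2 fold change -1.28, adjusted p = 0.017, and adjusted p = 0.133 without replicate 1 and 0.0528 without replicate 3). Synpo and Cd2ap were higher by 0.85 and 0.69, Col4a4 and Podxl were lower, at log2 fold changes of -0.97 and -0.48, and without replicate 2 the adjusted p was 0.0624, 0.117, 0.0713 and 0.212.

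The circadian clock is a loop in which CLOCK and BMAL1 induce their own repressors. Of 19 clock genes 10 were lower in the 3-digit libraries (52.6% called against 34.1% of all genes, median -0.97), and 6 of these calls held. The number of higher genes was 0 in edgeR's test, at an unadjusted p under 0.05 and with DESeq2. Nr1d1, the repressor REV-ERBalpha, had 29.1 and 29.4 CPM and 488, 258 and 416 CPM (log2 fold change -3.73, SE 0.48, adjusted p = 0.000273), above the 2.59 to 7.73 CPM of day 0 in all 5. Ciart, a repressor of CLOCK and BMAL1, had 2.00 and 1.82 CPM and 75.0, 24.0 and 63.6 CPM (log2 fold change -4.82, SE 0.73, adjusted p = 0.000604). Bhlhe41, another repressor of the loop, had 3.13 and 3.50 CPM and 35.5, 14.7 and 34.1 CPM (log2 fold change -3.08, SE 0.46, adjusted p = 0.000551). In each gene the 3-digit libraries lay close together and replicate 4 was the lowest of the 1-digit libraries. Per1 had 63.5 and 48.2 CPM and 277, 206 and 247 CPM (log2 fold change -2.12, SE 0.29, adjusted p = 0.000364). Bhlhe40 was lower, at a log2 fold change of -0.78 (adjusted p = 0.0276, and adjusted p up to 0.256 without replicate 2, with the call also lost without replicates 3, 4 and 5). Dbp, an output gene of the clock, had 28.2 and 47.6 CPM and 128, 53 and 80.3 CPM and did not pass the test (log2 fold change -1.20, adjusted p = 0.0742). The labels give no time of day.

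The protein pair of CLOCK and BMAL1 binds the E-box CACGTG. This palindrome was found in 1978 of 32851 promoters (6.02%) in the 250 bases before the start and in 3 of the 8 promoters of the 7 lower clock genes present in the RefSeq set, those of Ciart, Per1 and Bhlhe41, as well as in 3 of the 13 promoters of the 9 clock genes that were not called. It was also in 3 of the 19 promoters of lower immediate early genes (15.8%) and in 2 of the 16 of lower heat shock genes (12.5%). Of the other motifs searched, GAANNTTCNNGAA was in 0 of the 19 immediate early promoters and 0 of the 8 clock promoters, the cAMP response element TGACGTCA was in 1 of the 19 (Maff) against 508 of all (1.55%), and the CArG box was in 0 of the 19 against 482 of all (1.47%). Over the 30 promoters of all tested immediate early genes the CArG box was in 5 (16.7%), those of Egr2 and Srf. Shown are the last 200 bases before the start of Ciart (chr3:95882229-95882428, minus strand), of Per1 (chr11:69098749-69098948, plus strand) and of Bhlhe41 (chr6:145865421-145865620, minus strand). These are the lower clock genes in which the letters occur. Ciart holds 3 matches and the others 1 match each, in capitals. Per1 has another promoter in the set (chr11:69099952-69100151, plus strand), which holds no match and is not shown.
Ciart: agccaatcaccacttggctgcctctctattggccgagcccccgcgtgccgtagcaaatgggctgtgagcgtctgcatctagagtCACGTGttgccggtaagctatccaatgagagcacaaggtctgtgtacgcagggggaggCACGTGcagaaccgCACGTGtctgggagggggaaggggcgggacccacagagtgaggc
Per1: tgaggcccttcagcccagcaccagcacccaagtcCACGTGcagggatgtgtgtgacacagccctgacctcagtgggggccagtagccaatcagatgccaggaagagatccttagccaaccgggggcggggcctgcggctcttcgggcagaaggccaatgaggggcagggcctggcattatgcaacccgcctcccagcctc
Bhlhe41: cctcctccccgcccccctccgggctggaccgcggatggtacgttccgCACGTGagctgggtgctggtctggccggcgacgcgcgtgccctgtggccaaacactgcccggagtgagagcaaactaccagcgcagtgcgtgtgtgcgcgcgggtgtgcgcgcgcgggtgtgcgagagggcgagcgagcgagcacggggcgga

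Of 7 glucocorticoid targets, a hormone program that also has a daily rhythm, 3 were called (42.9% against 34.1% of all genes). The median was -0.95, and -1.47 without replicate 1. Klf9 and Tsc22d3 were lower, at log2 fold changes of -1.31 and -0.79, Pik3r1 was higher by 0.41, and none held (adjusted p = 0.0786, 0.0817 and 0.202 without replicate 2).

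Contractile genes of smooth muscle gave 11 higher and 0 lower of 14 in the 3-digit libraries, and 6 calls held. In edgeR's test 78.6% were called against 34.1% of all genes, with a median of 1.62. There was 1 lower gene at an unadjusted p under 0.05 and 0 with DESeq2. Acta2, smooth muscle actin, had 100.2 and 96.9 CPM and 20.2, 26.5 and 37.5 CPM (log2 fold change 1.81, SE 0.32, adjusted p = 0.0013). Mylk, the kinase of myosin light chains, had 108 and 125 CPM and 44.8, 38.0 and 42.3 CPM (log2 fold change 1.48, SE 0.22, adjusted p = 0.000496). Tagln, an actin-binding relative of the calponins, had 274 and 194 CPM and 71.7, 121 and 116 CPM (log2 fold change 1.19, SE 0.27, adjusted p = 0.00562, and adjusted p = 0.0641 without replicate 1). All 3 of the 1-digit libraries were below both 3-digit libraries in each gene. Of the low genes, Cnn1 had 1.73 and 5.50 CPM and 0.273, 0.229 and 0.723 CPM (log2 fold change 3.18, SE 0.87, adjusted p = 0.014, and adjusted p = 0.186 without replicate 2 and 0.0554 without replicate 4). Actg2, a visceral actin, was carried by replicate 2, with 1.08 and 8.37 CPM and 0.273, 0 and 0.161 CPM (log2 fold change 5.04, SE 1.29, adjusted p = 0.00995, and adjusted p = 0.208 without replicate 2), and Pln by replicate 1 (2.16, and adjusted p up to 0.216 without replicate 1, with the call also lost without replicates 3 and 4). The summed level of the list was 816 and 743 CPM in the 3-digit and 388, 477 and 452 CPM in the 1-digit libraries, with 274 to 337 CPM at day 0.

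Fibroblast, pericyte and matrix genes gave 7 higher and 1 lower of 27 (29.6% called, below the 34.1% of all genes, median 0.32, and 0.50 without replicate 5), and 4 calls held. The list had 5 calls without replicate 2. Col1a1 had 22.8 and 51.2 CPM and 5.19, 6.06 and 6.67 CPM (log2 fold change 2.63, SE 0.42, adjusted p = 0.000806), Col3a1 had 90.0 and 158 CPM and 19.3, 30.1 and 19.9 CPM (log2 fold change 2.42, SE 0.47, adjusted p = 0.0022), and Col1a2 had 62.1 and 99.8 CPM and 22.1, 27.7 and 28.0 CPM (log2 fold change 1.64, SE 0.32, adjusted p = 0.00239). Replicate 2 was the highest in each, and the 1-digit libraries overlapped the day 0 range. Cnn2, the actin-binding calponin that the study knocked down, had 62.1 and 52.5 CPM and 24.5, 23.7 and 19.7 CPM (log2 fold change 1.34, SE 0.19, adjusted p = 0.000427). Its day 0 range was 17.5 to 21.6 CPM. Both 3-digit libraries lay well above that range, replicates 3 and 4 just above it and replicate 5 inside it. Postn, a matrix protein of scars, had 10.5 and 16.1 CPM and 1.16, 2.12 and 2.17 CPM (log2 fold change 2.87, SE 0.69, adjusted p = 0.00701, and adjusted p = 0.0591 without replicate 2). The lower gene was Tgfb2 (-1.06, adjusted p = 0.0464, and adjusted p from 0.0462 to 0.221 over the 5 fits). Pdgfrb, the pericyte receptor, had 86.6 and 79.1 CPM and 48.0, 59.5 and 57.5 CPM in groups that did not overlap and did not pass the test (log2 fold change 0.59, SE 0.24, adjusted p = 0.0764). The endothelial list summed to 1079 and 958 CPM in the 3-digit and 1115, 1178 and 1327 CPM in the 1-digit libraries, a smaller sum in both 3-digit libraries. Yet 5 of its 27 genes were higher and 2 lower (25.9% called, below the 34.1% of all genes), and 3 calls held. The median was -0.00, and from -0.36 to 0.25 with a library left out. Tek, the angiopoietin receptor, had 19.2 and 28.6 CPM and 6.56, 7.38 and 10.6 CPM (log2 fold change 1.55, SE 0.27, adjusted p = 0.00116), and the transcription factor Sox18 had 8.74 and 6.36 CPM and 1.57, 1.89 and 2.25 CPM (log2 fold change 1.99, SE 0.30, adjusted p = 0.000559). Vwf (2.13) and Plvap (0.78) were higher and Cdh5 (-1.13) was lower, with calls that did not hold (adjusted p from 0.0166 to 0.198, adjusted p from 0.0546 to 0.153 and adjusted p from 0.0217 to 0.135 over the 5 fits). Pecam1, the endothelial adhesion molecule CD31, overlapped at 87.8 and 78.5 CPM and 58.2, 76.3 and 88.9 CPM (log2 fold change 0.16, adjusted p = 0.694).

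Few leukocyte markers passed the test. Of 27 macrophage and monocyte genes 2 were higher and none lower in edgeR's test (7.41% called, below the 34.1% of all genes, median 0.82). At an unadjusted p under 0.05, 9 were higher and 0 lower, against 5 and 0 with DESeq2. Lyz2, lysozyme, had 14.9 and 30.1 CPM and 3.42, 4.46 and 9.88 CPM (log2 fold change 1.95, SE 0.54, adjusted p = 0.0145, and adjusted p up to 0.175 without replicate 2, with the call also lost without replicates 3 and 4). Trem2, a receptor of lipid-laden macrophages, rested on few reads, with 38 over the 3-digit libraries and 2 over the 1-digit libraries, a ratio of 20.9 (95% counting interval 5.4 to 179, adjusted p = 0.00493). Csf1r, the macrophage growth factor receptor, overlapped at 26.2 and 30.5 CPM and 33.5, 29.9 and 24.2 CPM, below the 83.9 to 97.9 CPM of day 0 in all 5 (log2 fold change -0.05, adjusted p = 0.895). Of 17 neutrophil genes 1 was called by edgeR and 0 by DESeq2. It was Padi4, which citrullinates histones, on 21 and 2 reads (ratio 11.5, 95% counting interval 2.82 to 102, adjusted p = 0.0454, and adjusted p from 0.0717 to 0.215 over the 5 fits). S100a8, the most abundant protein of neutrophils with its partner S100a9, had 25.5 and 13.8 CPM and 12.8, 23.8 and 54.4 CPM (log2 fold change -0.62, adjusted p = 0.606). The neutrophil list summed to 115 and 61.0 CPM in the 3-digit and 69.0, 119 and 258 CPM in the 1-digit libraries, overlapping between the groups and above the 1.84 to 2.64 CPM of day 0, and the macrophage list to 399 and 391 CPM in the 3-digit and 174, 231 and 252 CPM in the 1-digit libraries, which did not overlap. Of 3 lymphocyte and 3 red cell genes tested, 0 were called by edgeR or DESeq2, and 0 and 1 passed an unadjusted p of 0.05.

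Interferon-induced and antigen presentation genes gave 12 lower and 1 higher of 30 (43.3% called against 34.1% of all genes, median -0.82), and 4 of the lower calls held. The list had 5 calls without replicate 2, 6 without replicate 1 and 7 without replicates 4 or 5. Oasl1 had 6.04 and 3.46 CPM and 42.4, 62.3 and 78.5 CPM (log2 fold change -3.69, SE 0.53, adjusted p = 0.000471). Rsad2, the antiviral enzyme viperin, had 7.82 and 7.55 CPM and 31.4, 37.3 and 71.2 CPM (log2 fold change -2.60, SE 0.35, adjusted p = 0.000365), below the 15.1 to 19.8 CPM of day 0 in the 3-digit and above it in the 1-digit libraries. Mx2 had 0.324 and 0.955 CPM and 2.19, 3.66 and 4.90 CPM (log2 fold change -2.45, SE 0.48, adjusted p = 0.00237). The presentation genes H2-K1 and Cd74 were lower, at log2 fold changes of -0.71 and -1.25 (adjusted p = 0.00886 and 0.0494, and 0.0771 and 0.18 without replicate 2).

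Of 28 genes of DNA replication 11 were higher in the 3-digit libraries and none lower in edgeR's test (39.3% called against 34.1% of all genes, median 1.03, with 0 lower at an unadjusted p under 0.05 and with DESeq2), but replicate 2 carried them (median 0.20 without it). Mcm5, a subunit of the replicative helicase, had 14.5 and 63.9 CPM and 12.8, 12.4 and 12.7 CPM (log2 fold change 1.64, SE 0.57, adjusted p = 0.04), and Mcm6 had 11.4 and 63.0 CPM and 9.29, 10.1 and 10.4 CPM (log2 fold change 1.91, SE 0.66, adjusted p = 0.0398). Replicate 1 lay only just above the 1-digit libraries. The list had 6 calls without replicate 3 and 5 without replicate 4. Without replicate 2, 1 of the 11 calls remained, Cdk4, a kinase of the G1 phase, with 106 and 131 CPM and 58.1, 40.2 and 55.3 CPM (log2 fold change 1.21, SE 0.22, adjusted p = 0.00179). Mcm2 and Pola1 were higher by 1.40 and 1.58 (adjusted p = 0.0138 and 0.0262, and without replicate 2 0.419 and 0.396, against 0.851 for Mcm5 and 0.872 for Mcm6). Of 26 mitotic genes 1 was higher and 1 lower (7.69% called, median 0.37, and -0.12 without replicate 2, 0.80 without replicate 1 and 0.58 without replicate 4), and at an unadjusted p under 0.05 there were 4 higher and 1 lower. Mki67, the standard mark of cycling cells, overlapped at 4.32 and 12.1 CPM and 5.94, 7.03 and 6.67 CPM (log2 fold change 0.34, adjusted p = 0.615), Aurkb was higher (1.46, adjusted p up to 0.541 without replicate 2, with the call also lost without replicates 3, 4 and 5), and Kif23, a kinesin of cell division, was lower with 4.48 and 5.96 CPM and 16.9, 24.9 and 19.7 CPM (log2 fold change -1.97, SE 0.25, adjusted p = 0.000273). Ribosome biogenesis genes gave 3 higher and 1 lower of 23 (17.4% called, median 0.06), with Nop56 (0.78), Bop1 (0.83) and Wdr12 (0.49) higher and Gnl3 (-0.41) lower, and none was called without replicate 2 (adjusted p = 0.157, 0.0796, 0.0775 and 0.239).

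Markers of the urothelium, the lining of the renal pelvis that a kidney sample may or may not include, also moved with the groups. Of 16 listed, 14 were tested, and 2 (Krt6a and Gsdmc) had no read in any day 1 library. In edgeR's test 7 were higher and none lower (50% called against 34.1% of all genes). At an unadjusted p under 0.05 and with DESeq2, 0 were lower. The median was 3.64, also with the gene that a group had at 0 set to its bound. Without replicate 2 the list had 1 call and a median of 2.25, and 4 calls without replicates 3, 4 or 5. Among genes with at least 10 counts in every library it had 0 calls and a median of 1.23. Their summed level was 77.3 and 284 CPM in the 3-digit and 15.0, 23.8 and 29.9 CPM in the 1-digit libraries, with 7.29 to 127 CPM at day 0, so it was highest in replicate 2. Krt5, a basal keratin, had 8.42 and 53.8 CPM and 0.547, 0.801 and 1.29 CPM (log2 fold change 5.16, SE 1.54, adjusted p = 0.0208, and adjusted p up to 0.214 without replicate 2, with the call also lost without replicates 3, 4 and 5), and the uroplakin Upk1b had 2.16 and 16.1 CPM and 0.0683, 0.172 and 0.482 CPM (log2 fold change 5.28, SE 1.73, adjusted p = 0.0317, and adjusted p up to 0.306 without replicate 2, with the call also lost without replicates 3, 4 and 5). Krt14 had 430 reads over the 3-digit and 1 over the 1-digit libraries (ratio 473, 95% counting interval 84.4 to 18700, adjusted p = 0.00622, and adjusted p = 0.0535 without replicate 2). Krt15, another basal keratin, had 87 reads and no read, at least 31.9-fold higher against a floor of 3 reads over the group. Krt4 was the call that held, with 7.39 and 4.36 CPM and 0, 0 and 0.402 CPM (log2 fold change 5.57, SE 1.47, adjusted p = 0.0117), although it did not pass in DESeq2 (adjusted p = 0.239, against 0.00256 to 0.0473 under the other alternatives), and here replicate 1 was the higher. Adipose and adrenal markers gave 1 higher and 1 lower of 10 in edgeR's test (20% called, below the 34.1% of all genes), both at low counts. Mc2r had 0.270 and 0.227 CPM and 1.37, 0.915 and 1.53 CPM (adjusted p = 0.0147). Cyp21a1 had 20 and 2 reads, a ratio of 11 (95% counting interval 2.67 to 97.0, adjusted p = 0.023). Neither call held. The sum of the list overlapped between the groups (186 and 176 CPM in the 3-digit and 88.0, 147 and 189 CPM in the 1-digit libraries). The part of urothelial and smooth muscle tissue in the results was not tested.

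**Figure D4:**
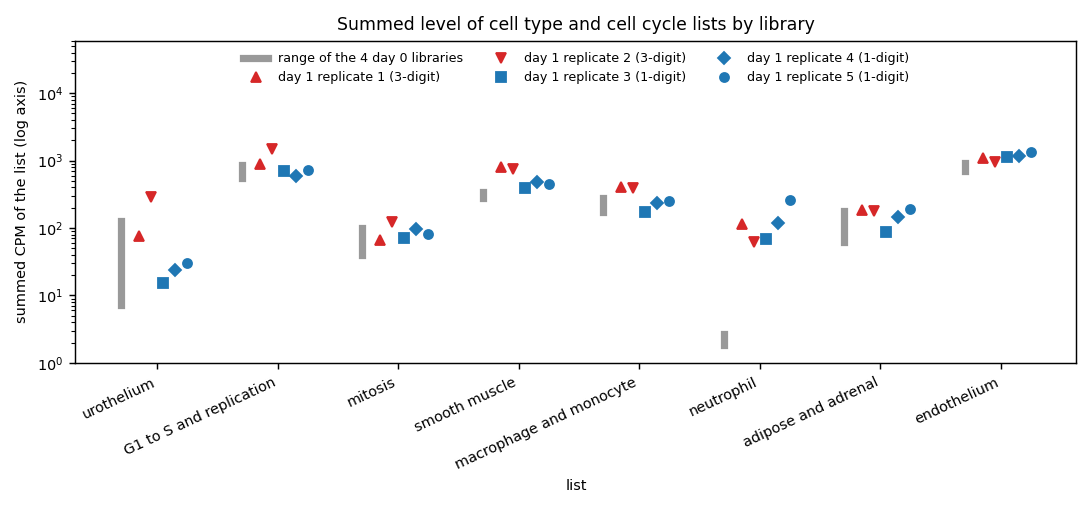
Summed CPM on a log axis of 8 lists of cell type and cell cycle genes in each day 1 library (red triangles 3-digit, blue symbols 1-digit), beside the range of the 4 day 0 libraries (grey bars). Replicate 2 stands highest for urothelium (284 CPM) and replication, both 3-digit libraries are highest for smooth muscle (816 and 743 CPM) and macrophages (399 and 391 CPM), both are lowest for endothelium (1079 and 958 CPM), and the groups overlap for neutrophil, mitotic, and adipose and adrenal genes.

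Over all genes, the ends of the ranking were named by rule, the 10 highest and the 10 lowest called genes among those that averaged 1 CPM or more and had no overlap. At the upper end were Krt14, Gsdmc2, Sprr2a3, Capn13, Sptssb, Gabrp, Krt4, Fcgbp, Vtcn1 and Upk1b. Most were carried by replicate 2. For Gsdmc2, Sprr2a3, Capn13, Sptssb, Fcgbp and Upk1b the 3-digit libraries did not both lie above the day 0 range. The upper ends of that range were 6.46, 9.60, 1.45, 16.6, 27.5 and 9.54 CPM. For Krt14, Gabrp, Krt4 and Vtcn1 both lay above it. For Gsdmc2, Capn13 and Fcgbp all 1-digit libraries lay below the day 0 range. Sprr2a3, a gene of the cornified envelope of epithelia, had 0.324 and 32.0 CPM and 0.137, 0.0572 and 0.321 CPM, and Fcgbp, a mucus protein, had 4.96 and 32.6 CPM and 0.478, 0.229 and 0.643 CPM. Both calls were lost without replicates 2, 3, 4 or 5 in turn, and without replicate 2 the log2 fold change of Sprr2a3 was 0.98 in place of 6.60 (adjusted p = 0.853) and that of Fcgbp 3.49 in place of 5.42 (adjusted p = 0.225). Vtcn1, the immune checkpoint ligand B7-H4, was as clear in replicate 1, with 14.6 and 24.2 CPM and 0.342, 0.629 and 0.402 CPM (log2 fold change 5.36, SE 0.47, adjusted p = 7.95e-05) and 0.443 to 1.27 CPM at day 0. Against 1 to 3 reads in the 1-digit group, the ratio was 135 for Gsdmc2, 122 for Capn13, 103 for Sptssb and 62.1 for Gabrp, with 95% counting intervals of 37 to 1120, 21.5 to 4860, 34.8 to 501 and 16.8 to 519. Of these 4 calls the one on Gabrp held. Without replicate 2 the adjusted p was 0.213 for Gsdmc2, 0.0847 for Capn13 and 0.698 for Sptssb, whose log2 fold change fell from 6.41 to 2.12, and the calls on Gsdmc2 and Sptssb were also lost without replicates 3, 4 or 5.

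At the lower end were F12, Apol8, Hspa1a, Fam71a, Krt12, Cntnap5a, Smcp, Cxcl2, Cnih2 and Fosb. F12, coagulation factor XII, had no read in either 3-digit library and 25, 19 and 104 reads in the 1-digit libraries, which put it at least 44.9-fold lower against a floor of 3 reads over the group. Krt12, a keratin known from the cornea, had 0.540 and 0.318 CPM and 14.3, 40.4 and 22.0 CPM and at most 0.0575 CPM at day 0 (log2 fold change -5.89, SE 1.02, adjusted p = 0.00123). Apol8 had 2 reads over the 3-digit and 382 over the 1-digit libraries, a ratio of 174 (95% counting interval 47.8 to 1440), and no read at day 0. Fam71a, Cntnap5a and Cnih2 also had 1 or 2 reads over the 3-digit group, and their ratios were 87.3, 71.8 and 46.4, with 95% counting intervals of 15.3 to 3480, 12.5 to 2870 and 12.5 to 388. Smcp had 0.216 and 0 CPM and 7.99, 4.12 and 4.66 CPM (log2 fold change -5.70, adjusted p = 0.00094).

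Day 3 holds the same kind of split, 3 libraries with 3-digit and 2 with 1-digit numbers, and shares no library with day 1. There 2639 genes (17.8%) differed by number format, and for 2521 genes (17.0%) the format difference itself differed between the days. Called on both days were 1061 genes, 21.0% of the day 1 calls and 40.2% of the day 3 calls, of which 703 had the same sign and 358 the opposite. Proximal tubule enzymes, with 24 lower and 3 higher at day 1, had 16 higher and 0 lower at day 3, and the transporters had 13 higher and 1 lower, so that the difference between the days passed the test in 26 and 23 of their genes. Slc34a1 had a day 3 difference of 3.09 against -3.03 at day 1 (difference -6.11, adjusted p = 0.000555), and Lrp2 of 2.56 against -0.84 (difference -3.40, adjusted p = 0.00799). Of 14 smooth muscle genes 7 were lower and 0 higher at day 3, and 9 differed between the days. Acta2, Tagln, Des, Lmod1, Myl9 and Tpm2 were higher at day 1 and lower at day 3, whereas Mylk (0.23, adjusted p = 0.467) and Pln (0.72, adjusted p = 0.473) did not pass the test at day 3. For heat shock genes day 3 gave 1 higher and 2 lower, and 10 of 18 differed between the days. Havcr1 had 0.24 at day 3 (difference 4.77, adjusted p = 0.00391). Of 29 immediate early genes 18 were lower at day 1 and 7 at day 3, and 4 differed between the days. Fos (-0.72, adjusted p = 0.589) and Atf3 (-1.14, adjusted p = 0.152) did not pass the test at day 3. Mitotic genes, of which 1 was higher and 1 lower at day 1, were higher in all 26 at day 3, and 16 of the 26 differed between the days. Other lists kept their direction. DNA replication genes, carried by replicate 2 at day 1, had 11 higher and 0 lower there and 10 and 0 at day 3. Their medians were 1.03 and 1.15, and in 0 of 28 did the difference between the days pass the test. Clock genes had 10 lower at day 1 and 5 at day 3, with 0 higher, and 5 of 19 differed between the days.

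**Figure D5:**
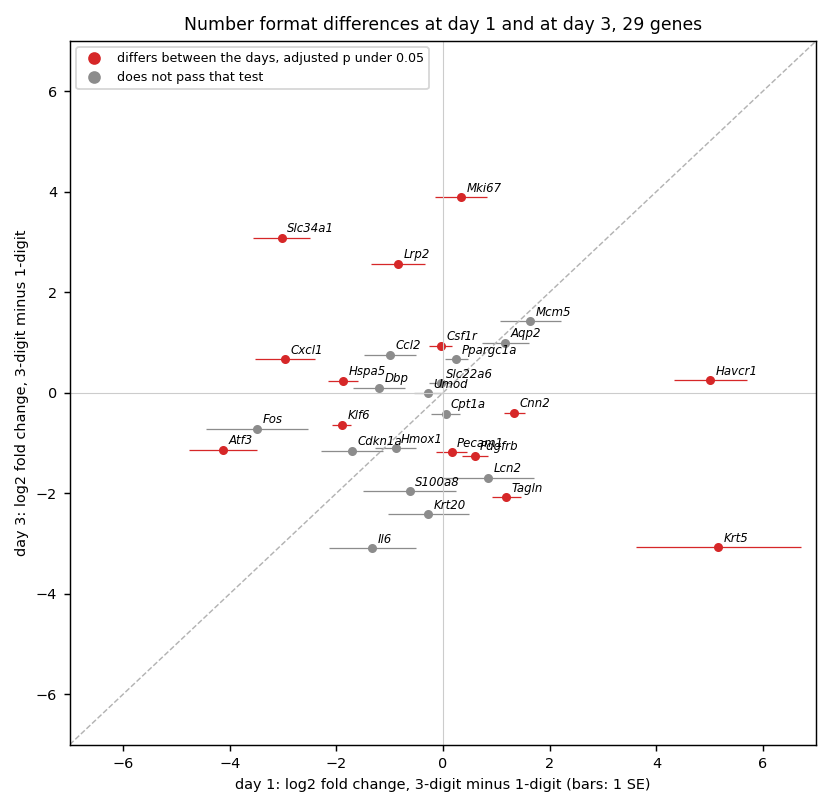
Log2 fold change between 3-digit and 1-digit libraries at day 1 (horizontal axis, with 1 standard error) and at day 3 (vertical axis) for 29 genes, with red for the 14 genes whose difference between the days passed the test. The dashed line marks equal values. Havcr1 and Tagln lie to the right, Slc34a1, Atf3 and Cxcl1 to the left, and Mki67 near 0 at day 1 and at 3.89 at day 3.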

How the data were processed

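RNA of mouse kidney was extracted with TRIzol and sequenced from Illumina TruSeq libraries. Per the submitters' processing notes, the authors trimmed the reads with Trimmomatic and aligned them with STAR to mm10, with versions and annotation not given in the sources used here. The deposited files hold read counts per gene as raw counts of uniquely placed reads without molecular identifiers, and the column for the strand with most of the counts was taken. Counting intervals cover counting error only. The 4 rows that name no gene took 34.3% to 38.3% of the day 1 reads and were left out, which left 13399023 to 20476979 reads per library.

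A quasi-likelihood model was fitted in edgeR 4.0.16 (limma 3.58.1, R 4.3.3) to all 14 libraries, with day and number format as 1 factor of 5 groups, TMM scaling, and genes kept by filterByExpr. Calls used a Benjamini-Hochberg adjusted p of 0.05 over all 14804 genes tested. SE is the absolute log2 fold change over the root of F, and CPM (counts per megaread) are scaled by TMM. An exact permutation test of 2 against 3 libraries cannot go below 0.1 and was not used. Groups came from the labels, with day 1 split by number format.

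Named are, per list, the 2 most abundant called genes and the 3 called genes with the largest change among those that averaged 1 CPM or more without overlap, a panel of 29 genes, and over all genes the 10 highest and 10 lowest. Other genes were named after their values were seen, as exceptions or examples. Some genes that the rule names are not reported here. The grouping, members and lists were chosen with earlier results of these data known. Alternatives were other scalings, filters, unstranded counts, DESeq2 1.42.0, thinned counts, a fold threshold, the day 1 libraries alone and each library left out. The scripts were tested on simulated data.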

Additional observations from a re-analysis of the deposited data

Results flagged for a closer look

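In 75 groups of values examined, 8 had 1 library far from the others, and chance gives about 1 in 20. At day 0, replicate 4 had Fos at 3.316 log2 CPM against -0.3882 to -0.1891 in the others, Hmox1 at 5.702 against 5.084 to 5.174, Pecam1 at 5.936 against 5.424 to 5.467 and a share of reads outside genes of 13.1% against 12.5% to 12.6%. Atf3 was at 1.639 log2 CPM in day 0 replicate 2 against 0.7108 to 0.7883 in the others. At day 1, Mcm5 was at 6.0 log2 CPM in replicate 2 against 3.647 to 3.871, Ppargc1a at 4.282 in replicate 4 against 4.836 to 5.062, and Rn45s took 1.39% of the reads in replicate 5 against 0.333% to 0.40%.

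The number format difference itself changed between the days, in edgeR's test of day 1 minus day 3, for 14 of 29 panel genes. It was above 0 on the log2 scale for Krt5 (8.241), Havcr1 (4.765), Tagln (3.271), Pdgfrb (1.843), Cnn2 (1.739) and Pecam1 (1.343). It was below 0 for Slc34a1 (-6.115), Cxcl1 (-3.631), Mki67 (-3.55), Lrp2 (-3.403), Atf3 (-2.987), Hspa5 (-2.108), Klf6 (-1.261) and Csf1r (-0.9797). For Pdgfrb, Pecam1, Lrp2, Csf1r and Mki67 the day 1 difference alone did not pass the test. Which samples share an operation, an extraction or a sequencing run is not given, so the day cannot be told apart from any such split.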

How the results depend on the processing

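The main counts at day 1 (5049 genes, 2685 higher and 2364 lower) stayed within 1.5 times under unstranded counts, RLE size factors, upper quartile scaling, the other filters, DESeq2 (5525), thinned counts and the day 1 libraries alone (4694), and the number of lower genes was 1461 under total counts. A minimum log2 fold change of 1 left 2462 genes, 1446 higher and 1016 lower. Leaving out each day 1 library gave 1947 to 4428 genes, 1183 to 2399 higher and 764 to 2029 lower, with the fewest in each case without replicate 2, and leaving out each day 3 library gave 4943 to 5664, 2558 to 2994 higher and 2385 to 2670 lower. The genes whose difference changed between the days numbered 1259 to 3143 when 1 library was left out, the fewest without day 1 replicate 1. The cause of these shifts was not tested, beyond the smaller number of samples. With replicate 1 or 2 left out, the lone 3-digit library is assumed to vary like the other groups. Of 158 called named genes, 133 were called under every alternative other than the fold threshold and the left-out libraries, 72 in all 5 fits that leave out a day 1 library and 71 in all of these, and 0 of 175 named genes had a call in either fit and changed sign. Medians of the chemokine, cholesterol, endothelium, fatty acid oxidation, hypoxia, lymphocyte, mitosis, podocyte, red blood cell and tubule transcription factor lists changed sign in at least 1 fit. Genes with 1 to 3 reads in a group are limited by depth. No paired analysis was possible because the groups compared share no replicate number.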
